A study of Gallus gallus with 6 samples.

Results

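The H3K27ac sites described here are those that were acetylated both with and without FGF2 in posterior pre-placodal explants of the chick embryo, and that 2 peak callers found in both conditions. They are called kept sites. They were chosen on measured values: a kept site is a control Homer H3K27ac peak that shares 1 bp or more with an FGF2 Homer peak, with a control MACS2 peak and with an FGF2 MACS2 peak of the same mark. Of 28101 control Homer peaks in the parts of the genome used, 8002 were kept. The whole control list holds 32725 peaks. Scaffolds and the parts of chromosomes 1, 2 and 3 from 100 Mb on were left out, because the control MACS2 positions are rounded there.

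The explants were taken at HH6, when the pre-placodal region lies at the border of the neural plate. FGF2-treated explants were cultured for 6 h with 0.25 ng/µl FGF2, and control explants for 6 h without it. Around 100 tissues were pooled for each chromatin preparation, and each condition has 1 library for H3K27ac, 1 for H3K27me3 and 1 input. There is therefore no replicate, no spread between samples and no test of FGF2 itself, and every interval below is a 95% Wilson or normal interval over sites that covers counting error only. Neighbouring sites are not independent of each other, so these intervals are narrower than they should be. The lists give positions without read numbers, so the depth behind each peak is unknown. They hold no expression values, and the tissue label was not checked against marker genes. In pooled tissue, a peak called in 1 condition only may reflect fewer cells with the mark or less of the mark per cell, which cannot be told apart.

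H3K27ac, acetylation of lysine 27 on histone H3, is laid down by the acetyltransferases p300 and CBP and marks active promoters and enhancers. H3K27me3, trimethylation of the same lysine, is laid down by the Polycomb complex PRC2 and marks silenced or poised developmental genes. A histone tail cannot carry both on the same lysine, so both marks at a site in pooled tissue come from different histones, alleles or cells. FGF signalling induces otic-epibranchial progenitors (OEPs), the common precursors of the inner ear and epibranchial ganglia, from the posterior pre-placodal region.

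The rule acted in steps. Of the 28101 control Homer peaks, 20757 (73.9%) overlapped a control MACS2 peak, 11436 (40.7%) an FGF2 Homer peak and 11600 (41.3%) an FGF2 MACS2 peak, and the 8002 that met all 3 make up 28.5%. Each kept site met exactly 1 FGF2 Homer peak, and no FGF2 Homer peak was shared by several kept sites. The kept sites lie in 7320 FGF2 MACS2 peaks, which are 30.6% of that list, and in 7437 control MACS2 peaks, which are 20.7% of that list. Sites called lost number 8146: these are control Homer peaks also found by control MACS2 that overlap neither FGF2 list. Sites called gained number 6012 and are the mirror image on the FGF2 side. A further 3434 control Homer peaks were shared with the FGF2 Homer list but missing from a MACS2 list.

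At the edge of the rule, the kept sites chr1:6008844-6009594 and chr5:59147790-59148540 (galGal4) shared 1 bp with their FGF2 Homer peak. Just outside it, the control peaks chr3:33000933-33001683 and chr18:9593746-9594496 missed the nearest FGF2 Homer peak by 1 bp, although a peak of each MACS2 list overlapped them. There were 2666 such peaks, found by MACS2 in both conditions but without an overlapping FGF2 Homer peak. Their median gap to the nearest FGF2 Homer peak was 2024 bp, and 754 of them (28.3%) lay within 1 kb of one. Nearly all Homer peaks have a fixed width of 751 bp. Of the 2666, 328 lay more than 10 kb from any FGF2 Homer peak.

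The FGF2 and control Homer peaks at kept sites were nearly superimposed. The distance between their centres had a median of 38 bp, with quartiles of 17 and 89 bp, and 4747 sites (59.3%) had centres within 50 bp of each other. The rule itself limits this distance to 750 bp, and the centres of the wider MACS2 peaks at the same sites lay a median of 361.5 bp apart. At 59 sites the positions were identical, and at 432 sites (5.40%) the centres lay more than 375 bp apart. The displacement had no clear direction along the chromosome: the FGF2 centre lay to the right at 3937 sites and to the left at 4006. One of the identical sites, chr5:56612526-56613276, was chosen after its values were seen. It stood at row 187 of the FGF2 list and within the first 0.217% of the control list, and its MACS2 peak was 746 bp wide with FGF2 and 740 bp in control. It also overlapped an H3K27me3 peak in the FGF2 Homer list and in both MACS2 lists.

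The Homer lists are not in genome order. What orders them is not given in the sources used here, but the share of peaks that MACS2 also called dropped along them, and it was 88.7% in the first and 12.6% in the last decile of the FGF2 list, against 95.3% and 10.6% in the control list. List position, the percentage of the list passed on reaching a peak, is used below as a description of how readily a peak was called. Kept sites stood early. Their median list position was 24.2% in the FGF2 list and 25.5% in the control list, against 52.4% for gained sites in the FGF2 list and 52.5% for lost sites in the control list. The 3434 sites shared by Homer but missing from a MACS2 list had a median control position of 55.1%.

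For shares of the FGF2 list, an FGF2 Homer peak counts as kept where it met all 3 other lists, which held for 8012 of 31591. Of the FGF2 peaks in the first decile of their list, 64.8% were kept, and of the control peaks in the first decile, 65.5%. In the last decile these shares were 1.58% and 1.04%. A peak late in either list was thus rarely kept, in both conditions to a similar degree. The positions of a kept site in both lists went together, with a Spearman rho of 0.83 over the 8002 sites, which share libraries and the selection rule and are not replicates. At 4871 sites (60.9%) the positions differed by 10 percentage points or less. At 189 sites the FGF2 position was more than 30 points earlier than the control position, and at 178 it was more than 30 points later. All of these values come from the measurements that chose the sites and are given as a description.

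**Figure D1:**
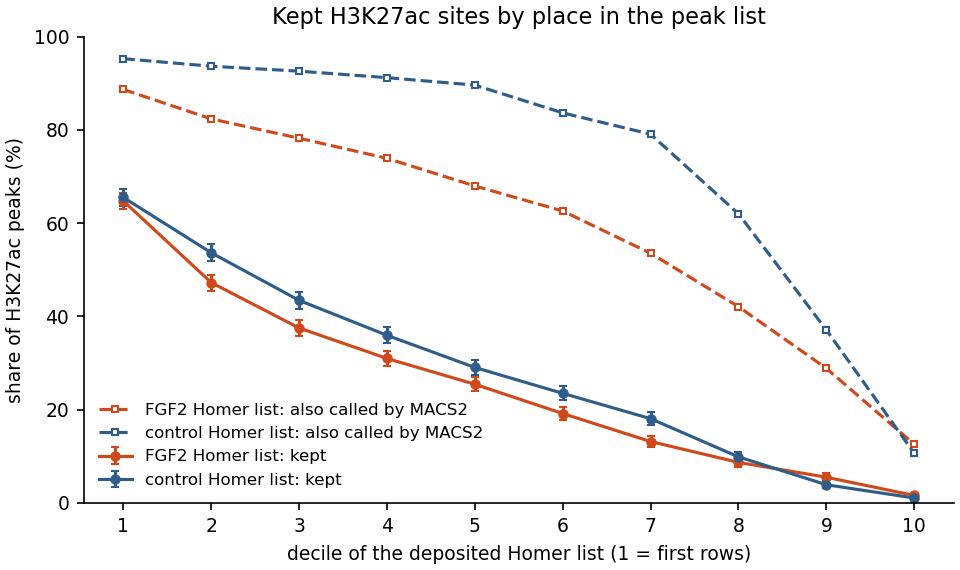
Share of Homer H3K27ac peaks that were kept (solid lines, circles, bars are 95% Wilson intervals) and share also called by MACS2 in the same condition (dashed lines, squares), by decile of the FGF2 (orange) and control (blue) list. FGF2 peaks count as kept where they met all 3 other lists. The kept share is 64.8% with FGF2 and 65.5% in control in the first decile, and 1.58% and 1.04% in the last.

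The first kept sites in the control list were again named after their values were seen. The site chr23:2164298-2165048 was at row 40 of the FGF2 list and its MACS2 peak was 2419 bp wide with FGF2 and 2379 bp in control. The site chr28:2176998-2177748 had MACS2 peaks of 1589 bp with FGF2 and 1588 bp in control. At chr19:89174-89924 the MACS2 peak was 1880 bp wide with FGF2 and 380 bp in control. The Homer peak positions of these sites differed by 5 to 10 bp between conditions, while the MACS2 widths were close at the first pair of sites and not at the last.

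MACS2 was run for broad regions, and its peak widths describe how far the called domain around a kept site extended. A region that MACS2 split into several peaks thus gives a narrow width at each site. The domain was 1469 bp wide with FGF2 and 1455 bp in control at the median. These medians exceed those of gained sites (781 bp with FGF2) and of lost sites (698.5 bp in control), and also those of all MACS2 peaks, 1010 bp with FGF2 and 860 bp in control. The rule favours wide peaks, since a kept site must meet a MACS2 peak in both lists, and a wide peak counts once for each kept site in it, so this is a description of the selected sites. Domains of 5 kb or more covered 903 kept sites (11.3%) with FGF2 and 807 (10.1%) in control, against 2.38% of gained sites with FGF2 and 2.15% of lost sites in control. At 376 kept sites the domain was 5 kb or wider in both conditions.

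**Figure D2:**
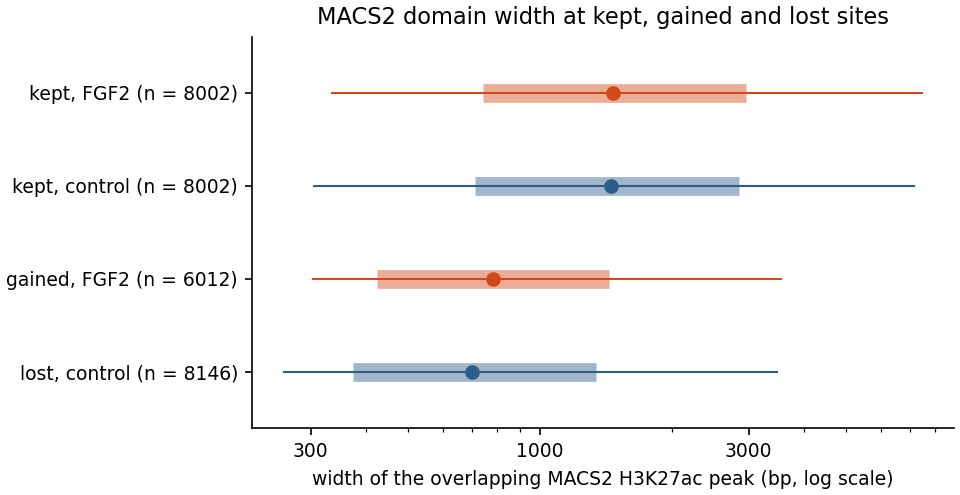
Width of the overlapping MACS2 H3K27ac peak in bp (log scale) at kept sites with FGF2 and in control, at gained sites with FGF2 and at lost sites in control. Points are medians, boxes quartiles and lines the 5th to 95th percentile over sites; the medians are 1469, 1455, 781 and 698.5 bp.

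Width was balanced between conditions over all kept sites but not at each of them. The ratio of FGF2 to control width had a median of 0.99, with quartiles of 0.65 and 1.68. The FGF2 domain was the wider at 3888 sites (48.6%), the control domain at 4090, and 24 were equal. At 1695 sites (21.2%) the FGF2 domain was more than 2 times as wide, and at 1434 sites (17.9%) it was less than 0.5 times as wide. The Spearman rho between both widths was 0.50 over the 8002 sites, below the 0.83 of the list positions. Since the smallest MACS2 peak is 286 bp in the FGF2 list and 243 bp in the control list, the ratio at narrow sites is bounded by these limits.

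The sites with the largest and smallest ratios had a domain of several kb in 1 condition and a narrow peak in the other. At chr3:41306071-41306821 the FGF2 domain was 15886 bp and the control domain 272 bp wide, a ratio of 58.4. In the cluster of 8 kept sites around it, MACS2 peaks added up to 21.4 kb with FGF2 (3 peaks) and 19.3 kb in control (4 peaks). The ratio thus compares single peaks, not the acetylated length of the region. At chr4:1772730-1773480 the widths were 11784 bp with FGF2 and 379 bp in control. At chr17:1444673-1445423 they were 7583 bp with FGF2 and 247 bp in control. The opposite held at chr18:9186892-9187642 and chr18:9188732-9189482, which fell into 1 control domain of 10774 bp but into separate FGF2 peaks of 294 and 353 bp. At chr13:9494912-9495662 the FGF2 domain was 295 bp and the control domain 9536 bp wide. List positions varied among these sites. The chr13 site stood at 7.57% with FGF2 and 3.43% in control, and chr18:9188732-9189482 at 8.40% and 6.13%, early in both. The chr17 site stood at 19.8% with FGF2 and 18.9% in control. Later positions were those of the chr3 site (38.3% with FGF2, 55.0% in control), the chr4 site (40.1% and 75.5%) and chr18:9186892-9187642 (50.6% and 39.7%).

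The widest FGF2 domain, 21059 bp at chr5:13537494-13558552, held several kept sites. Of these, chr5:13543362-13544112 stood at 1.18% of the FGF2 list and 2.07% of the control list, chr5:13547286-13548036 at 9.92% and 14.9%, and chr5:13540475-13541225 at 31.9% and 27.1%. The control domain of the first and last of them was 13754 bp wide, and that of the middle one 1708 bp. The next widest FGF2 domains with kept sites, named after their values were seen, were chr17:5607479-5628266 (20788 bp, against 12639 bp in control), chr4:5248493-5267786 (19294 bp, against 19591 bp in control) and chr6:11328497-11347762 (19266 bp, against 20879 bp in control). The domains on chromosomes 4 and 6 had a similar extent in both conditions.

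H3K27me3 was measured in other libraries and was not used to choose the sites. The source label of the FGF2 H3K27me3 library reads +FGF3 and that of the FGF2 input +FGF4, while their titles name FGF2, and the titles were followed. Most kept sites, 7215 of 8002 (90.2%, interval 89.5 to 90.8%), overlapped no Homer H3K27me3 peak in either condition. So did 84.9% of lost and 76.9% of gained sites, and the share over all Homer peaks is not given here. With the MACS2 lists added, 7023 kept sites (87.8%) overlapped no H3K27me3 peak in any of the 4 lists. An FGF2 H3K27me3 peak overlapped 590 kept sites (7.37%, 6.82 to 7.97%), and a control H3K27me3 peak 307 (3.84%, 3.44 to 4.28%). Over all 28101 control Homer H3K27ac peaks the shares were 6.9% for FGF2 H3K27me3 and 8.49% for control H3K27me3. Over all FGF2 Homer H3K27ac peaks they were 15.9% for FGF2 H3K27me3 and 5.27% for control H3K27me3. Kept sites, which are peaks of both lists, were thus close to the control peaks and below the FGF2 peaks for FGF2 H3K27me3, and below both for control H3K27me3. The FGF2 Homer H3K27me3 list is the longer, with 24522 peaks against 16052 in control, which was not corrected for.

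By condition, 480 kept sites (6.00%) overlapped H3K27me3 with FGF2 only, 197 (2.46%) in control only and 110 (1.37%, 1.14 to 1.65%) in both. Among gained sites the shares were 18.1% with FGF2 only, 2.30% in control only and 2.63% in both. Among lost sites they were 4.15% with FGF2 only, 9.48% in control only and 1.42% in both. Sites acetylated in 1 condition thus overlapped H3K27me3 mostly in that same condition. At kept sites the FGF2-only share lay above that of lost sites, and the control-only share was near that of gained sites. For FGF2 H3K27me3, the 7.37% of kept sites was near the 6.9% over all control Homer peaks. It was below the 15.9% over all FGF2 Homer peaks.

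The comparison with gained and lost sites in the condition where each is acetylated gives the difference directly. FGF2 H3K27me3 overlapped 7.37% of kept sites and 20.8% of gained sites, a difference of -13.4 percentage points (-14.6 to -12.2). Control H3K27me3 overlapped 3.84% of kept sites and 10.9% of lost sites, a difference of -7.06 points (-7.86 to -6.27). In the other condition the sets were closer: FGF2 H3K27me3 overlapped 7.37% of kept and 5.57% of lost sites, and control H3K27me3 overlapped 3.84% of kept and 4.92% of gained sites. Each condition has 1 input library for both marks, and its part in the overlap was not tested.

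With MACS2 H3K27me3 peaks kept sites again lay far below gained sites for the FGF2 mark, and below both other sets for the control mark. They overlapped 537 kept sites (6.71%) with FGF2, against 17.9% of gained and 6.43% of lost sites, with a background of 6.26% over all control Homer peaks. In control they overlapped 32 kept sites (0.400%), against 0.724% of lost and 0.848% of gained sites and a background of 0.555%. The control MACS2 list holds only 923 H3K27me3 peaks in the regions used, so the kept minus lost difference there was small, at -0.32 points (-0.55 to -0.09).

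**Figure D3:**
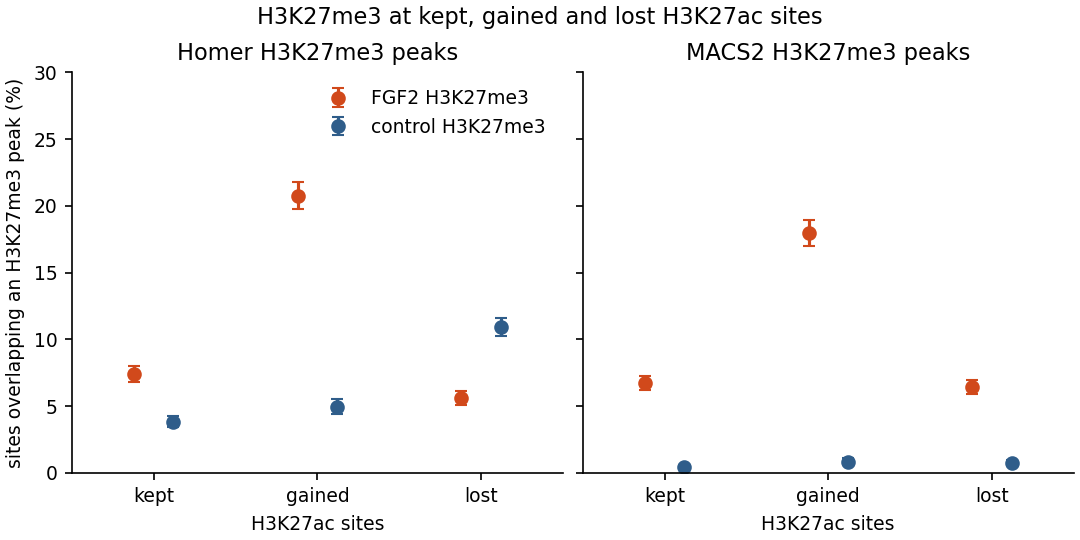
Share of kept, gained and lost H3K27ac sites overlapping an FGF2 (orange) or control (blue) H3K27me3 peak, called by Homer (left) or MACS2 (right); bars are 95% Wilson intervals. With Homer the FGF2 share is 7.37% at kept and 20.8% at gained sites, and the control share 3.84% at kept and 10.9% at lost sites.

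Because kept sites stand early in the lists, the comparison was repeated within quintiles of the list order, an alternative added after the data were seen. In the first quintile of the FGF2 list, FGF2 H3K27me3 overlapped 4.72% of kept and 18.4% of gained sites, and in the last quintile 13.6% of kept and 21.3% of gained sites. In the first quintile of the control list, control H3K27me3 overlapped 2.39% of kept and 6.87% of lost sites, and in the last quintile 6.67% (9 of 135) of kept and 11.5% of lost sites. The share at kept sites was lower in each of the 5 quintiles of both lists, although the intervals overlapped in the last quintile. Among kept sites alone, the H3K27me3 share was larger at later list positions.

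**Figure D4:**
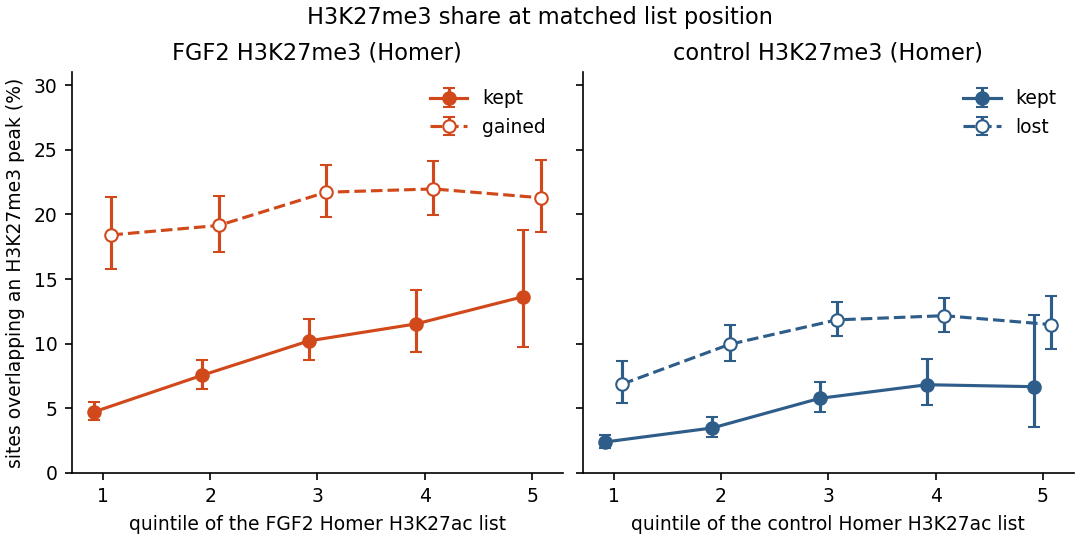
Share of sites overlapping H3K27me3 called by Homer in the same condition, by quintile of the FGF2 list (left; kept filled, gained open) and of the control list (right; kept filled, lost open), with 95% Wilson intervals. Kept sites lie below gained or lost sites in every quintile, from 4.72% against 18.4% in the first FGF2 quintile to 13.6% against 21.3% in the last.

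Within the kept sites, H3K27me3 also went with narrow domains, in splits added after the data were seen. In the narrowest tertile of FGF2 domains (up to 961 bp), 10.1% of sites (9.00 to 11.3%) overlapped FGF2 H3K27me3 and 5.17% control H3K27me3. In the widest tertile (over 2309 bp) these shares were 4.76% (4.02 to 5.64%) and 2.62%. Single kept sites overlapped FGF2 H3K27me3 at 8.28% and control H3K27me3 at 4.75%, with intervals of 7.54 to 9.08% and 4.19 to 5.38%. Among kept sites joined at gaps of up to 5 kb, clusters of 2 to 4 stood at 5.86% (5.05 to 6.80%) and 2.53% (2.01 to 3.19%), and clusters of 5 or more at 6.61% (4.40 to 9.80%) and 1.20% (0.468 to 3.05%). For FGF2 H3K27me3 the last interval contains that of single sites. List position moved with width and clustering. Its FGF2 median was 31.2% in the narrowest and 16.6% in the widest tertile. It was 26.2% at single sites and 18.4% in clusters of 5 or more. The part of list position in these shares was not tested. Kept sites whose FGF2 domain was less than 0.5 times as wide as the control domain overlapped FGF2 H3K27me3 at 9.21% (7.82 to 10.8%). Those within 2 times stood at 6.71% (6.04 to 7.45%), and those more than 2 times wider with FGF2 at 7.73% (6.55 to 9.10%). For control H3K27me3 the shares were 3.56%, 3.59% and 4.78% in the same order. These sets also differed in FGF2 domain width, with medians of 683, 1435 and 2742 bp, and its part was not tested. The 2666 peaks found by MACS2 in both conditions but without an FGF2 Homer peak stood at 4.31% for FGF2 and 5.48% for control H3K27me3.

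By median distance, H3K27me3 peaks were also farther from kept sites. The nearest FGF2 H3K27me3 peak lay at a median distance of 13.9 kb from kept sites, 9.29 kb from gained and 10.6 kb from lost sites. The nearest control H3K27me3 peak lay 20.9 kb from kept sites, against 15.9 kb from gained and 15.4 kb from lost sites. An FGF2 H3K27me3 peak was found within 5 kb of 24.0% of kept sites, and within 5 kb of 38.9% of gained and 29.97% of lost sites. Within 1 kb, kept and lost sites were close: 9.46% of kept and 9.21% of lost sites, against 24.3% of gained sites. The distances over all Homer peaks are not given here, and the part of list position and chromosome was not tested.

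At 16 kept sites all 4 H3K27me3 lists had a peak, so that both marks were called by both callers in both conditions. The control MACS2 H3K27me3 list, which overlapped only 32 of the 8002 kept sites, limits this count. The share of such sites over all Homer peaks is not given here. Whether they are more or less common among kept sites than elsewhere was not tested. In genome order the first of the 16 are chr1:22607061-22607811, chr1:25853287-25854037, chr1:78422060-78422810, chr2:7044039-7044789 and chr4:42838979-42839729. Their FGF2 acetylation domains were 3161, 287, 377, 474 and 1159 bp wide in that order, and their control domains 1304, 516, 379, 1164 and 704 bp. Neither condition had the wider domain at all 5. Among the others, chr15:12197796-12198546 had a control domain of 6603 bp and chr18:11115197-11115947 one of 6054 bp, against 1640 and 2035 bp with FGF2. One of the 16, chr5:5240161-5240911, lies in the Pax6 window described below.

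The 8002 kept sites fell into 6122 groups when sites up to 5 kb apart were joined. Of these groups 4905 were single sites, 814 had 2 sites, 256 had 3, 92 had 4, and 55 had 5 or more. Thus 38.7% of kept sites had another kept site within this distance. Homer peaks are often close together: another control peak of any kind lay within 5 kb of 65.9% of kept and 51.0% of lost sites. The share of all Homer peaks joined in this way is not given here. The cluster with the most, chr14:14147102-14186571, held 13 kept sites in 39.5 kb, out of 14 FGF2 and 14 control Homer peaks. It held 2 FGF2 and 0 control Homer H3K27me3 peaks. The cluster chr13:506623-543813 held 11 kept sites out of 12 FGF2 and 11 control Homer peaks, with no H3K27me3 peak in any of the 4 lists. The cluster chr5:13521661-13555885, which overlaps the widest FGF2 domain, held 10 kept sites out of 11 FGF2 and 10 control Homer peaks, with 2 FGF2 and 1 control Homer H3K27me3 peaks. Nearly every acetylation peak in these 3 clusters was present in both conditions. The clusters were chosen for holding the most kept sites and are bounded by them, so this is close to given by the rule. The median list position of the chr13 members was 5.13% with FGF2 and 4.29% in control, the earliest of the 3.

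The deposited lists of putative enhancers are almost entirely stretches of up to 5 kb that separate consecutive Homer acetylation peaks (11031 of 11036 FGF2 and 9813 of 9816 control intervals), so an enhancer beside a kept site nearly always means that a further H3K27ac peak lay nearby. The study describes enhancers as stretches of no more than 3 kb without H3K27me3, and it counted far fewer of them. The deposited lists, with 12198 FGF2 and 10674 control intervals in all, are thus a larger set than the one it analysed. In the regions used, 36.4% of the FGF2 and 36.3% of the control intervals are longer than 3 kb, and 12.3% and 7.10% overlap a Homer H3K27me3 peak. An FGF2 enhancer adjoined 5435 kept sites (67.9%) and a control enhancer 5274 (65.9%). Both adjoined 4372 (54.6%), only an FGF2 enhancer 1063 (13.3%), only a control enhancer 902 (11.3%), and neither 1665 (20.8%). With enhancers derived by the 3 kb definition, the share adjoining one in both conditions was 33.3%. For comparison, an FGF2 enhancer adjoined 50.2% of gained sites and a control enhancer 51.0% of lost sites. Kept sites thus had a neighbouring acetylated site more often than either, but they also stand earlier in the lists. The part of list position in this was not tested, and the share over all Homer peaks is not given here.

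Enhancers with a kept site on both flanks were a minority of both lists. They numbered 1741 of 11036 FGF2 enhancers (15.8%) and 1740 of 9816 control enhancers (17.7%), and a kept site stood on 1 flank of a further 4157 FGF2 and 3830 control enhancers. No flank was a kept site at 5138 FGF2 and 4246 control enhancers. Of those with 2 kept flanks, 1728 FGF2 and 1731 control enhancers overlapped an enhancer of the other condition, as the rule nearly fixes. Over the deposited lists in the regions used, 37.2% of FGF2 and 41.8% of control enhancers did so. This is not the overlap that the study gave for its smaller set.

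Predicted AP1 sites, binding sites of the FOS and JUN leucine zipper dimers that act downstream of the ERK pathway, and DREiVe regions, clusters of short motifs conserved between vertebrates, are given only around selected genes. In the 6 windows with AP1 sites there were 85 kept sites, 48 of them in the window on chromosome 26. An AP1 site lay within 1 kb of 36 (42.4%, 32.4 to 53.0%), against 62.5% of 88 gained and 57.6% of 59 lost sites. Over all Homer peaks in these windows the share was 56.2% of 322 FGF2 and 51.5% of 241 control peaks, and the control value lies inside the interval of the kept sites. The difference to gained sites was -20.1 points (-34.7 to -5.56) and that to lost sites -15.3 points (-31.7 to 1.14). These intervals treat sites as independent, although sites in 1 window share their locus, so they are not a test. The sets also differ in where they lie, since the window around Spry1 held 1 kept and 31 gained sites. The part of this in the difference was not tested.

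DREiVe regions lay within 1 kb of 6 of 38 kept sites (15.8%, 7.44 to 30.4%), against 22.0% of 50 gained and 25.9% of 27 lost sites. This is near the share over all Homer peaks in these windows, 16.8% of 173 FGF2 and 16.1% of 118 control peaks. The differences were -6.21 points (-22.5 to 10.1) to gained and -10.1 points (-30.3 to 10.1) to lost sites, with the same limit. One kept site, chr26:1648189-1648939, had both features within 1 kb, and both lay inside it. Its domain was 12161 bp wide with FGF2 and 12460 bp in control, it belonged to a cluster of 7 kept sites, and it overlapped no H3K27me3 peak.

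In the 8 windows around named genes, 18 kept sites were found among 57 FGF2 and 39 control Homer peaks. Over the regions used, 28.5% of control Homer peaks were kept, and 25.4% of FGF2 Homer peaks met all 3 other lists. The study chose these loci to show gain, loss or little change of H3K27ac. The windows of Spry1, Foxi3 and Hesx1 held 0 kept sites. A kept site must be a control Homer peak, so a window without control peaks cannot hold one. Spry1 encodes a feedback inhibitor of FGF signalling, and its window had 7 FGF2 and 0 control Homer peaks. Foxi3 encodes a forkhead factor needed for the otic placode in mouse, and its window had 8 FGF2 and 3 control Homer peaks, none of them kept. Hesx1 encodes a homeobox repressor of the anterior head, and its window had 4 FGF2 and 0 control peaks. When the windows were widened by 50 kb on each side, Spry1 and Hesx1 still had 0 kept sites and Foxi3 had 3.

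The regions tested as enhancers in the study lay outside kept sites. The study took them from stretches flanked by acetylation peaks, so lying outside a peak is close to given. The nearest kept site was 279 kb from Spry1-E and 162 kb from Hesx1-E. For both Foxi3 elements it was chr4:85621402-85622152, at 25.6 kb for E1 and 9.63 kb for E2, with a domain of 592 bp with FGF2 and 2789 bp in control. Cxcl14-E lay 1.95 kb from the kept site chr13:14645799-14646549.

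Cxcl14, which encodes a secreted chemokine, had 2 kept sites among 6 FGF2 and 3 control Homer peaks. With FGF2 both fell in a single domain of 5215 bp, whereas in control they had separate domains of 640 bp (chr13:14645799-14646549) and 1212 bp (chr13:14647471-14648221). Their list positions were 9.02% and 12.0% with FGF2, against 47.3% and 32.3% in control, earlier with FGF2 at both. No H3K27me3 peak overlapped either.

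Pax6, a homeobox gene of the lens and eye, had 4 kept sites among 4 FGF2 and 7 control Homer peaks, so every FGF2 peak in its window was kept. The window also held 3 lost and 0 gained sites, and the study describes a decrease of H3K27ac at this locus. The pair chr5:5246556-5247306 and chr5:5249106-5249856 shared an FGF2 domain of 2846 bp and had control domains of 1977 and 1303 bp. The other kept sites, chr5:5228884-5229634 and chr5:5240161-5240911, had domains of 793 and 464 bp with FGF2 and of 902 and 484 bp in control. Both of these overlapped a Homer H3K27me3 peak in each condition, and the pair did not.

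Dlx5/6, homeobox genes of the pre-placodal region and neural plate border, had 3 kept sites among 4 FGF2 and 5 control Homer peaks. Their domains were 1281, 957 and 406 bp with FGF2 and 1440, 1000 and 777 bp in control, at chr2:24584946-24585696, chr2:24582323-24583073 and chr2:24572525-24573275. The FGF2 list positions of 99.6%, 69.4% and 85.1% were later than the control positions of 71.6%, 46.6% and 76.9%. The first of these was among the last kept sites of the FGF2 list. Gata3, a zinc finger gene of the otic placode, had 1 kept site among 2 FGF2 and 4 control Homer peaks, chr1:4298083-4298833. Its domain was 328 bp with FGF2 and 1264 bp in control, its list position 29.3% with FGF2 and 6.10% in control, and a Homer H3K27me3 peak overlapped it in both conditions.

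Eya2, which encodes a phosphatase and transcriptional coactivator of the pre-placodal region, had 8 kept sites among 22 FGF2 and 17 control Homer peaks in a window of 205.5 kb. The site chr20:5917290-5918040 stood at 2.16% of the FGF2 and 3.04% of the control list, in domains of 10484 bp with FGF2 and 4137 bp in control. The FGF2 domain also held chr20:5922531-5923281, which in control shared a domain of 5415 bp with chr20:5924998-5925748. The domain at chr20:5937693-5938443 was 2911 bp wide with FGF2 and 1143 bp in control, and that at chr20:5977594-5978344 was 1324 bp with FGF2 and 2067 bp in control. A control Homer H3K27me3 peak overlapped 1 of the 8 kept sites and an FGF2 peak 0.

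The kept share of control peaks differed between chromosomes. On the microchromosomes 11 to 28, the small gene-dense chromosomes of birds, 3639 of 11082 control Homer peaks were kept (32.8%, 31.97 to 33.7%), against 4099 of 15838 on chromosomes 1 to 10 (25.9%, 25.2 to 26.6%), a difference of 6.96 points (5.85 to 8.07). The difference was 3.94 points among control peaks that MACS2 also called, and 2.14 points as a mean over quintiles of the list order, an alternative added after the data were seen. On the Z chromosome 262 of 1169 were kept (22.4%). Single chromosomes with 100 or more control peaks ranged between 48.3% (100 of 207) on chromosome 25 and 22.4% on Z. Of the sites, 45.5% of kept, 27.9% of gained and 38.7% of lost sites lay on microchromosomes, as did 39.4% of all control Homer peaks. Gained sites are FGF2 peaks, and 11098 of all 31591 FGF2 Homer peaks lay on microchromosomes.

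**Figure D5:**
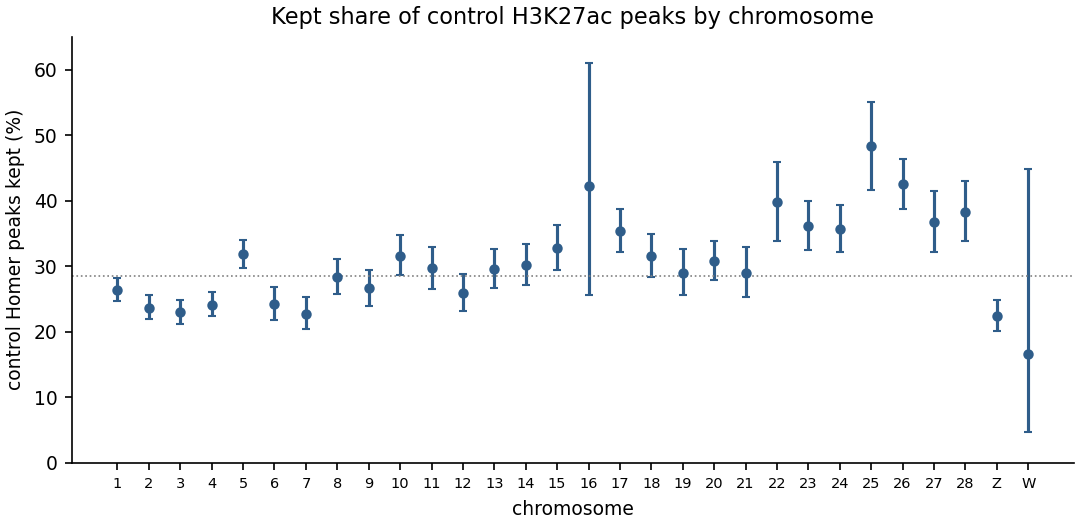
Share of control Homer H3K27ac peaks that were kept on each chromosome, with 95% Wilson intervals; the dotted line is the share over all chromosomes, 28.5%. Chromosomes 22 to 28 lie above the line, with the highest share, 48.3%, on chromosome 25.

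List position moved with this difference. Control peaks had a median list position of 42.8% on microchromosomes, 53.2% on chromosomes 1 to 10 and 73.0% on Z. In the first quintile of the control list 59.0% of peaks on microchromosomes and 59.6% on chromosomes 1 to 10 were kept, and in quintile 3 28.4% and 24.0%. On Z the kept share in the first quintile was 67.6% (71 of 105, 58.2 to 75.8%), and in the last 3.62%, against 1.95% on chromosomes 1 to 10. It lay above that of chromosomes 1 to 10 in each quintile, although the intervals overlapped in quintiles 1, 2 and 5. The low share of the whole Z chromosome was not seen within quintiles of the list. The part of list position in that share was not tested. Chromosomes 7 (22.7%) and 3 (23.0%) had whole-chromosome shares near that of Z. The H3K27me3 shares of kept sites were 7.86% on microchromosomes and 7.07% on chromosomes 1 to 10 for FGF2 H3K27me3, and 3.35% on microchromosomes and 4.37% on chromosomes 1 to 10 for control H3K27me3.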

How the data were processed

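Nano-ChIP-seq for H3K27ac and H3K27me3 was made by the authors in 1 library per condition and mark. Reads were trimmed by 9 bases and aligned with Novoalign to galGal4, and peaks were called against input with Homer (1.5-fold over input, FDR 0.01) and MACS2 (broad, FDR 0.05). The deposited values are interval positions only, with no counts, signal or scores. The lists of putative enhancers, AP1 sites and DREiVe regions were also deposited by the authors.

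Intervals sharing 1 bp or more were taken as overlapping; where several MACS2 peaks met a site, that with the most shared bases gave its width. Coordinates are 1-based. The members, lists and comparisons were chosen with earlier results of these data known. Sites named in the text are those in the windows of 8 of the study's browser views (up to 5 each, widest FGF2 domain first; that of Spry2 lies outside the regions used), the 3 largest clusters, the 3 sites with the widest FGF2 domain, the 3 largest and 3 smallest width ratios, up to 5 sites with H3K27me3 in most lists and those near both AP1 and DREiVe features; others are said to be chosen after their values were seen. Window bounds were read from the views by eye. AP1 and DREiVe windows joined entries up to 300 kb apart and needed 5 entries or more. Overlap, joining and distance steps were tested on simulated intervals. Scripts ran under Python 3.11.15 with scipy 1.17.1 for intervals, numpy 2.4.6 for medians and matplotlib 3.10.9 for plots. Genes were not assigned to sites genome-wide and no sequence was read, since no galGal4 genome or annotation was used here.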

Additional observations from a re-analysis of the deposited data

How the results depend on the processing

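Each condition and mark has 1 library, so no result could be recomputed without a replicate, and differences between libraries and effects of FGF2 cannot be told apart. No paired analysis was possible because each group has 1 sample and no test was made. The lists hold no read numbers, so depth could not be used to weigh calls. Of 53 alternatives, 20 stayed within the interval of the reported value (1.5 times, for counts) and 33 moved beyond it. Only the differences between sets or chromosomes can change sign, and 0 of them did. Counts, shares, ratios and distances cannot.

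MACS2 alone gave 15304 sites found in both conditions, against 8002 kept. The distance between centres was 361.5 bp for MACS2 peaks, against 38 bp for Homer peaks. FGF2 H3K27me3 at kept sites, 7.37% as reported, was 6.71% with MACS2, 4.30% with peaks of both callers, 6.44% with 0.5 of the site covered, 9.46% within 1 kb and 9.34% with 1 count per cluster. Control H3K27me3, 3.84% as reported, was 0.400%, 0.300%, 3.20%, 5.79% and 4.97% under these settings in the same order.

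The difference of kept minus gained sites in FGF2 H3K27me3 stayed between -14.8 and -11.0 points: -11.2 with MACS2, -14.8 within 1 kb, -11.7 with sets made by Homer alone, -14.6 without microchromosomes and -11.0 as a mean over list quintiles. That of kept minus lost sites in control H3K27me3 was -0.32, -7.98, -5.45, -7.90 and -5.43 points under these settings. The last pair of settings was chosen after seeing the data.

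Joining at 2 kb gave 636 clusters of several sites, against 1217 at 5 kb. With enhancers derived as 3 kb gaps free of H3K27me3, 33.3% of kept sites adjoined one in both conditions, 47.9% with FGF2 and 47.8% in control. AP1 sites were within 5 kb of 90.6% and inside 15.3% of kept sites, and DREiVe regions within 5 kb of 44.7% and inside 5.26%. The excess on microchromosomes was 3.94 points among control peaks that MACS2 also called and 2.14 points as a mean over list quintiles, again chosen after seeing the data. At Foxi3 the widened window held 3 kept sites.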
